A study of Mus musculus with 8 samples.

Results

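The 10 genes described here encode protein kinases and pseudokinases that many cells regulate at the level of their mRNA: Pim1, Pim2, Pim3, Plk2, Plk3, Sgk1, Sik1, Nuak2, Trib1 and Trib2. They were chosen by symbol as a family of immediate early or growth factor responsive kinase genes. They are 10 of 35715 genes named on the array. They were measured by 12 probes, 1 for each of 8 genes and 2 each for Trib1 and Trib2, and all 12 were bright enough to be tested.

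RNA was measured in NIH3T3, a fibroblast cell line derived from mouse embryos, on 8 single-colour Agilent arrays. All cells had been grown in 10% newborn bovine serum and then kept in 0.5% serum for 24 h. The 3 cordycepin arrays came from cells that received 20 µM cordycepin in DMSO for 90 min, with newborn bovine serum for the last 30 min, and the 3 serum arrays from cells that received 0.1% DMSO for 90 min and serum for the same 30 min. The 2 arrays without serum came from starved cells whose label names neither an agent nor a vehicle, and there was no array of cordycepin without serum. These times are those of the labels, while the published account can be read as serum following the whole cordycepin treatment. Cordycepin is 3′-deoxyadenosine, an adenosine analogue, and the question was how it changes the early response of fibroblasts to serum. Besides the design text's statement that treatments were made independently, nothing says that the arrays of a group came from separate cultures, so p-values measure the spread between these arrays, which may be partly technical.

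Immediate early genes are transcribed within minutes of a growth stimulus without the need for new protein synthesis, and several of them encode kinases whose activity follows how much of the protein a cell makes. The Pim kinases have no regulatory domain and are active once translated. Sgk1 is a serum- and glucocorticoid-regulated kinase that is switched on downstream of PI3K by PDK1 and mTORC2, while Sik1 and Nuak2 belong to the AMPK-related kinases that LKB1 activates. The Tribbles proteins Trib1 and Trib2 have a kinase fold with little or no catalytic activity and bring substrates such as C/EBP transcription factors to the ubiquitin ligase COP1.

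Promoter sequence was given by RefSeq for 7 of the 10 genes, as 13 windows from 250 bases before to 50 bases after an annotated start site on the build GRCm38.p6. Sik1, Trib1 and Nuak2 had no window. The 150 bases directly upstream of a start site are shown for 5 windows, written 5′ to 3′ on the strand of the gene, with motif matches in capitals. Plk2, Plk3 and Sgk1 were chosen because they were lower with cordycepin, and Pim3 and Pim2 stand for the genes that changed little or went the other way. The stretches lie at chr13:110394894-110395043, plus strand (Plk2), chr4:117133964-117134113, minus strand (Plk3), chr10:21994516-21994665, plus strand (Sgk1, the last of its 6 start sites), chr15:88862044-88862193, plus strand (Pim3) and chrX:7878156-7878305, plus strand (Pim2).
Plk2: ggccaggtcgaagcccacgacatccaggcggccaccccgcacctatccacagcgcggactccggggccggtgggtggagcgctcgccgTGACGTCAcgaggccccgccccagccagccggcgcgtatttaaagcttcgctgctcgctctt
Plk3: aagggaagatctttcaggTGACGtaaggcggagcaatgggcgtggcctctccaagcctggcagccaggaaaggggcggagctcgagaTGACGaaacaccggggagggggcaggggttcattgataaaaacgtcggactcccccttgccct
Sgk1: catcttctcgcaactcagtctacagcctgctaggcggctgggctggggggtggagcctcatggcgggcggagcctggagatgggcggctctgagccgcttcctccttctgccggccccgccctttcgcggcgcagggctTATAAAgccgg
Pim3: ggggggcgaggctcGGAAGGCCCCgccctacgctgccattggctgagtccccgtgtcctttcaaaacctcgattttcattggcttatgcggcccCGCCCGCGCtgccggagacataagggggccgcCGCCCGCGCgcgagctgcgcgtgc
Pim2: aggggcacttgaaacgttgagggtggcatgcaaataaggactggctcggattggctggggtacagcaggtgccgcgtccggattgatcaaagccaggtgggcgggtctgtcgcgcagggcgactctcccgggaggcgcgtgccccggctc

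The capitals in Plk2 mark a full cyclic AMP response element, the CREB binding motif TGACGTCA, which begins at position -62 from the start site. This motif occurred in 1.79% of 32851 mouse promoter windows, searched on both strands. Plk3 had 2 copies of its core, TGACG, at -132 and -63, and Plk2 had a further core at 22, beyond the stretch shown. The core was found in 20.8% of all windows, and the full element holds it on each strand. The Sgk1 capitals mark a TATA box, TATAAA, at -11, and another Sgk1 start site had one at -28. This box occurred on the given strand in 8.32% of windows. In Pim3 the capitals mark 2 EGR sites, GCGNGGGCG read on the other strand, at -56 and -24, and an NF-kB site at -136, motifs with shares of 5.55% and 8.46%. Both EGR sites overlap a GC box, GGGCGG, a motif found in 35.7% of windows, and GC boxes are not in capitals. The search for CArG boxes, the motif of serum response factor, gave no match in the 13 windows, and 1.63% of all windows held one. An E-box, CACGTG, found in 7.15% of windows, was in 1 Pim1 and 1 Sgk1 window, and the searches for AP-1 sites (TGANTCA, 7.81%) and ETS sites (CCGGAAG, 8.86%) gave no match. All searches but that for the TATA box covered both strands. These matches describe letters in a short window and not the binding of a factor.

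**Figure D1:**
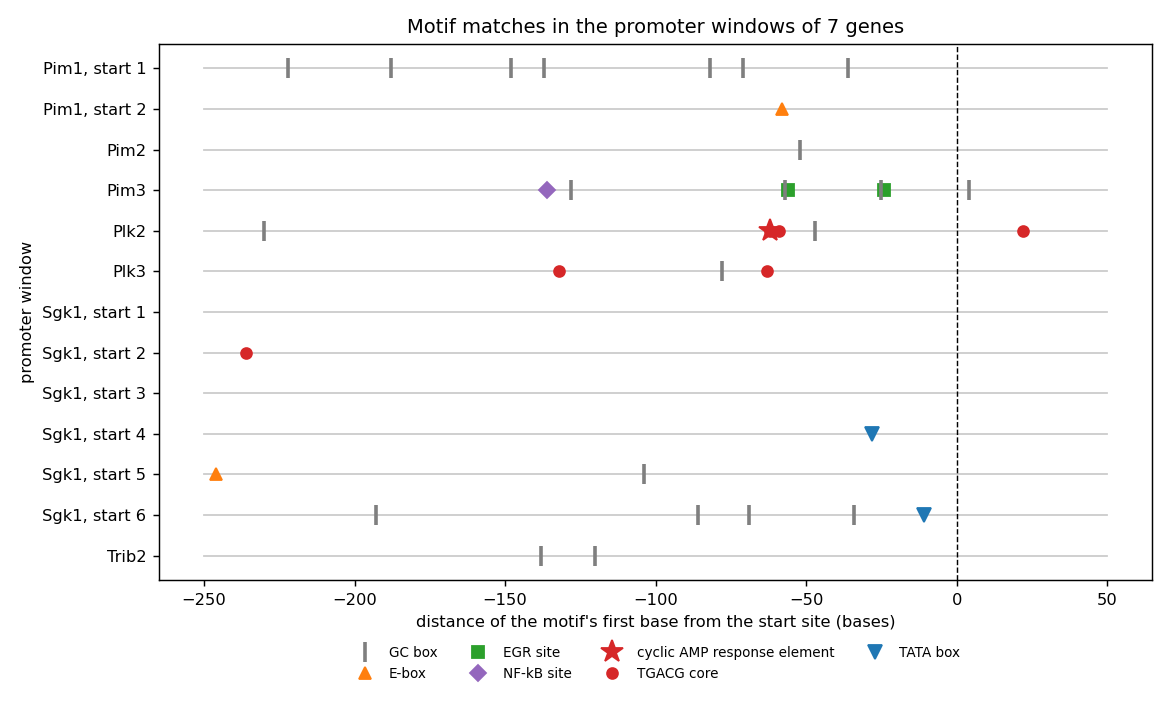
Positions of motif matches in the 13 promoter windows of 7 genes. The horizontal axis is the distance in bases from the annotated start site (dashed line), each grey line is 1 window, and each symbol is the first base of a match. The full cyclic AMP response element (star) is in the Plk2 window, and the TGACG cores (circles) are in Plk2, Plk3 and the second Sgk1 window.

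The label of the cells was checked against markers. All 10 fibroblast markers were well above background on all 8 arrays, among them Col1a1, Vim and Pdgfrb, and none was called in any comparison. Of 10 markers of other cell types, Cd3e, Krt14, Pecam1, Tubb3 and Cd68 were above background on all arrays, 3 others on some, and Cdh1 and Cdh5 on none. The macrophage marker Cd68 was 3.04 ± 0.21 (SE) higher on the log2 scale with cordycepin, with an adjusted p of 5.18e-05 by limma. The other 4 measured on all arrays had changes of -0.37 to 0.94, none of them called. The part of these markers in the results was not tested. The 75th percentile of the signal lay between 350 and 802 and 51.1 to 57.1% of probes were above background on an array. No spot was saturated, all arrays shared 1 slide and 1 scan, and the number of arrays limits the precision.

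Values below are log2 of the processed signal minus the 75th percentile of its array, so 0 is the level of a fairly bright spot on that array and 1 unit is a doubling of signal. A change is a difference between group means on this scale, with its standard error (SE) from limma, and is relative to the other transcripts on the arrays. Called changes had both an adjusted p under 0.05 and a size of at least 1, referred to as the minimum change. For RNA from a whole culture, less RNA per cell and fewer cells with the RNA cannot be told apart. Levels of different probes are not on a common scale and are not compared.

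With cordycepin, 5 of the 10 genes were called lower in serum-treated cells: Nuak2, Sgk1, Plk3, Trib1 and Plk2. The background for this count is 2.87% of 30863 tested probes. The median change of the 10 genes was -1.14, beside 0.10 for all probes, and 9 of 10 genes were below 0 where 37.6% of all probes were. Of the other 5, Pim3, Pim1 and Trib2 were lower by less than the minimum change, Pim2 was higher, and Sik1 did not pass the test. With the adjusted p alone, 8 genes were lower, against 7.36% of probes, and 1 was higher, against 12.0%. The pass of Pim1, Pim2, Pim3 and Trib2, whose changes were below the minimum, was lost with spike-in centring, and that of all but Pim3 with the slide row as a block. The lowest serum array lay above the highest cordycepin array for 8 genes, a pattern that 13.4% of probes showed.

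Fewer of the 10 genes were called in the comparison of serum with no serum. That comparison had fewer arrays and a smaller share of all probes called, so the lower count does not show a weaker effect. The serum arrays also had DMSO, which the label of the arrays without serum does not name. The part of DMSO in the serum changes was not tested. Trib1 and Plk3 were called higher after serum for 30 min, against 0.849% of probes, and with the adjusted p alone Pim1 and Sgk1 were added, which makes 4 genes against 1.14%. Neither addition passed with the slide row as a block. All 10 changes were above 0 on this scale, with a median of 0.85 beside -0.02 for all probes, although those of Pim2, Sik1 and Trib2 fell below 0 when arrays were centred on spike-in probes. For 8 genes every serum array lay above both arrays without serum, as for 9.70% of probes. Cordycepin plus serum and no serum were compared directly as well. In that comparison Sgk1 and Nuak2 were called lower, against 2.99% of probes. The comparison shares its arrays with the other comparisons, so the values of the 3 are given side by side and are not independent.

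**Figure D2:**
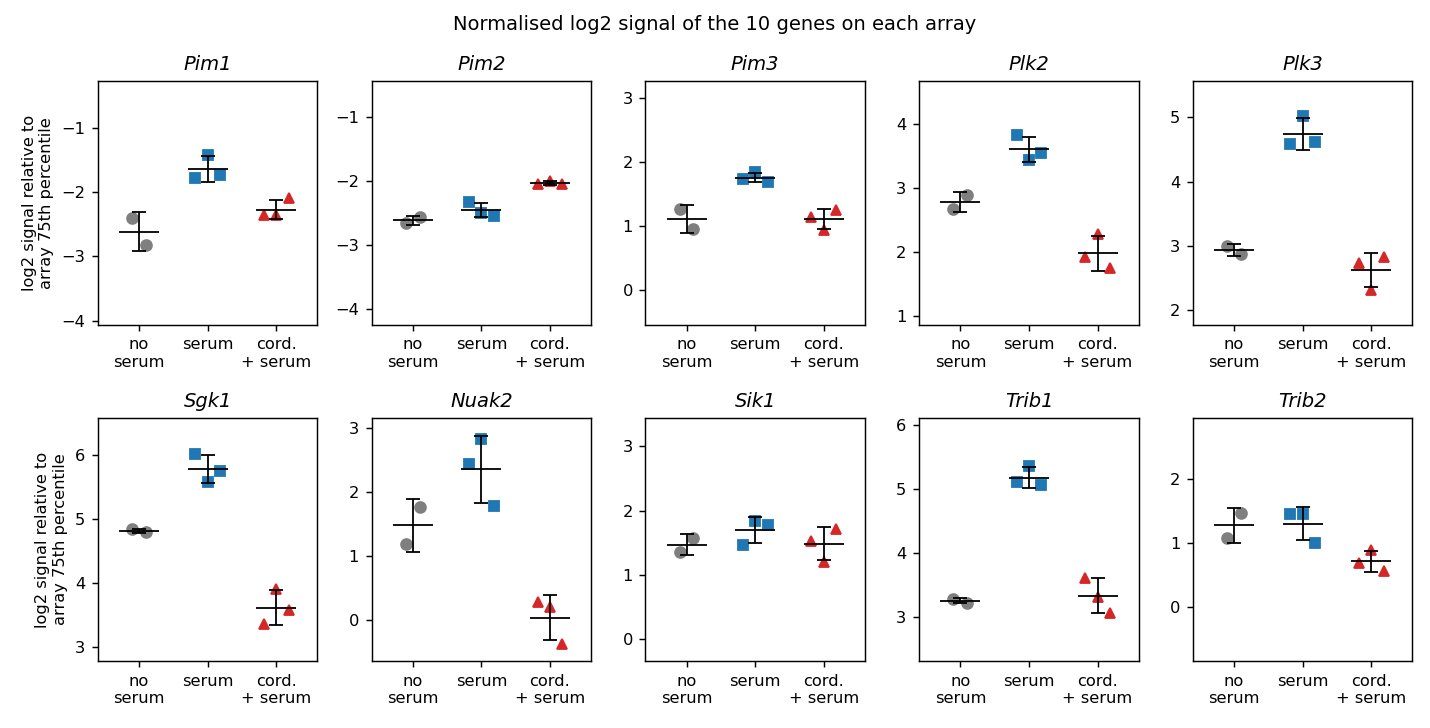
Normalised log2 signal of the 10 genes on each of the 8 arrays. Each point is 1 array (grey circles no serum, n = 2, blue squares serum, n = 3, red triangles cordycepin plus serum, n = 3), bars are the group mean and SD, and every panel spans the same range of log2 units around its own centre. The cordycepin arrays lie below the arrays without serum for Sgk1, Nuak2, Plk2, Plk3 and Trib2, and above all other arrays for Pim2. Against no serum, Plk3 (adjusted p 0.347 by limma) and Trib2 (0.103) did not pass the test. The share of all probes with such positions was not counted.

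The Pim kinases phosphorylate BAD and CDKN1B, among other substrates, and promote survival and cell cycle entry. The Pim1 probe lies at chr17:29630740-29630799 on mm9. Its values were -2.40 and -2.83 without serum, -1.77, -1.41 and -1.74 with serum, and -2.36, -2.36 and -2.09 with cordycepin and serum. The serum arrays stood above all others, and the cordycepin arrays lay above those without serum, by a narrow margin. The rise with serum was 0.98 ± 0.18 with an adjusted p of 0.0361 by limma, and with cordycepin Pim1 fell by 0.63 ± 0.16 on the log2 scale with an adjusted p of 0.0287. Both passed the adjusted p but not the minimum change, and with normexp background correction the cordycepin change of -0.40 had an adjusted p of 0.0601. Cordycepin plus serum differed from no serum by 0.35 with an adjusted p of 0.261.

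Pim3 (chr15:88695626-88695685) gave 1.26 and 0.95 without serum, 1.74, 1.83 and 1.69 with serum, and 1.14, 0.94 and 1.24 with cordycepin and serum. The serum arrays again stood apart and the other groups overlapped. The serum change was 0.65 ± 0.15 with an adjusted p of 0.0735, and the cordycepin change was -0.65 ± 0.13 with an adjusted p of 0.00949. After centring each gene on its own mean, Pim3 was the member closest to Pim1 over the 8 arrays, with a root mean square difference of 0.17 log2 units.

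Pim2 went the other way. Its probe (chrX:7459678-7459737) read -2.67 and -2.57 without serum, -2.33, -2.50 and -2.54 with serum, and -2.04, -2.01 and -2.06 with cordycepin and serum. The 3 cordycepin arrays lay above all 5 others and close together (SD 0.03). Pim2 was 0.42 ± 0.10 higher with cordycepin than with serum alone, adjusted p 0.0235, and 0.58 ± 0.12 higher than without serum, adjusted p 0.0112, against 9.16% of probes higher by adjusted p alone in that comparison. With quantile normalisation the cordycepin change was 0.25 (adjusted p 0.15), and with normexp background correction its adjusted p was 0.0611. The serum change was 0.16 with an adjusted p of 0.884. Pim1 and Pim2 were dim on all arrays, though above background on each.

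Plk2 and Plk3 are polo-like kinases with roles in the cell cycle and in stress responses. The Plk3 probe (chr4:116801317-116801376) read 3.00 and 2.86 without serum, 4.58, 5.02 and 4.62 with serum, and 2.72, 2.32 and 2.82 with cordycepin and serum. Every cordycepin array was below both arrays without serum and far below the serum arrays. Plk3 rose 3.51-fold with serum (log2 change 1.81 ± 0.20, adjusted p 0.00343) and was 4.36-fold lower with cordycepin (-2.12 ± 0.18, adjusted p 9.9e-05). Cordycepin plus serum differed from no serum by -0.31 with an adjusted p of 0.347.

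Plk2 (chr13:111190915-111190974) gave 2.67 and 2.89 without serum, 3.82, 3.44 and 3.55 with serum, and 1.92, 2.28 and 1.75 with cordycepin and serum. The 3 groups did not overlap, and the cordycepin arrays were the lowest. The cordycepin change was -1.62 ± 0.17, or 3.08-fold, with an adjusted p of 0.000324. The serum change of 0.83 ± 0.19 had an adjusted p of 0.0808. Against no serum, cordycepin plus serum was lower by -0.80 ± 0.19, adjusted p 0.0255, and thus below the minimum change. With the adjusted p alone, Plk2, Sgk1 and Nuak2 were the 3 genes lower in that comparison, against 5.95% of probes.

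Sgk1 phosphorylates NDRG1, NEDD4L and FOXO3. Its probe (chr10:21719507-21719566) read 4.84 and 4.79 without serum, 6.02, 5.58 and 5.75 with serum, and 3.37, 3.91 and 3.59 with cordycepin and serum. The groups were fully separate, with cordycepin below the starved level. The serum rise was 0.97 ± 0.19 with an adjusted p of 0.0443, just under the minimum change. With cordycepin Sgk1 was 4.47-fold lower than with serum (-2.16 ± 0.17, adjusted p 8.1e-05) and 2.29-fold lower than without serum (-1.20 ± 0.19, adjusted p 0.00392). Centred on spike-in probes, the last change was -1.59 with an adjusted p of 0.0975 and was no longer called.

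Nuak2 regulates contractility through the myosin phosphatase subunit PPP1R12A. Its probe (chr1:134229534-134229593) read 1.19 and 1.77 without serum, 2.45, 2.83 and 1.78 with serum, and 0.29, 0.20 and -0.36 with cordycepin and serum. Serum replicate 3 was level with the higher of the arrays without serum, and all cordycepin arrays were well below both groups. The cordycepin change of -2.31 ± 0.30 was the largest of the 10 and amounted to 4.95-fold, with an adjusted p of 0.00101, while the serum change was 0.87 ± 0.34 with an adjusted p of 0.383. Against no serum the change was -1.44 ± 0.34, or 2.70-fold lower, with an adjusted p of 0.0235. That call was lost without cordycepin replicate 3 (-1.23, adjusted p 0.0633), without no serum replicate 2 (-1.15, adjusted p 0.163) and without a filter on dim probes (adjusted p 0.0718).

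Sik1 phosphorylates the CRTC coactivators of CREB and class IIa histone deacetylases. It was the gene with the smallest change with cordycepin. Its probe (chr17:31981255-31981314) gave 1.35 and 1.58 without serum, 1.47, 1.84 and 1.78 with serum, and 1.53, 1.20 and 1.71 with cordycepin and serum, and all groups overlapped. The changes were 0.23 ± 0.19 with serum (adjusted p 0.948), -0.22 ± 0.17 with cordycepin (adjusted p 0.413) and 0.02 ± 0.19 for cordycepin plus serum against none (adjusted p 0.969).

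Trib1 had the largest serum response of the 10 genes. Its brighter probe (chr15:59487662-59487721) read 3.29 and 3.23 without serum, 5.11, 5.36 and 5.06 with serum, and 3.62, 3.31 and 3.07 with cordycepin and serum. The serum arrays stood clear of the rest, and the cordycepin arrays overlapped those without serum. Serum raised Trib1 3.78-fold (1.92 ± 0.18, adjusted p 0.00166) and it was 3.59-fold lower with cordycepin (-1.84 ± 0.16, adjusted p 0.000121), while cordycepin plus serum differed from none by 0.08 (adjusted p 0.822). The other Trib1 probe starts 187 bases away and gave 2.08 ± 0.17 with serum and -1.94 ± 0.15 with cordycepin, with adjusted p-values of 0.001 and 8.1e-05. Both Trib1 probes were therefore called in both comparisons.

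Trib2 barely moved with serum. Its brighter probe (chr12:15799009-15799068) read 1.07 and 1.46 without serum, 1.45, 1.44 and 1.00 with serum, and 0.69, 0.88 and 0.55 with cordycepin and serum. The cordycepin arrays were the lowest and the other groups overlapped. The serum change was 0.03 ± 0.20 (adjusted p 1), the cordycepin change was -0.59 ± 0.17 (adjusted p 0.0498), and the change against no serum was -0.56 (adjusted p 0.103). A probe 23763 bases upstream along the gene gave -4.16 and -3.73, then -3.65, -3.44 and -4.39, then -4.55, -5.05 and -5.58 in the same order. It was dim, above background on every array of the other groups but on 2 of the 3 cordycepin arrays. Its cordycepin change was -1.23 ± 0.32. It entered the test through the groups where it was brighter, so its p-value is not used here. Averaging both probes gave -0.91, and the difference between them was not tested.

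**Figure D3:**
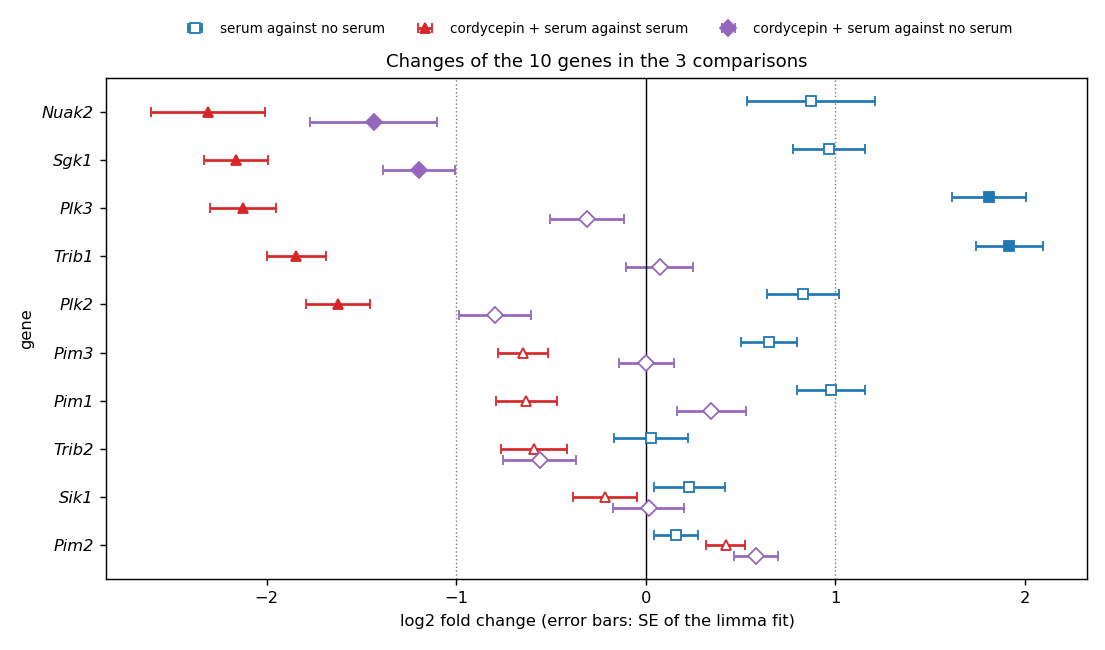
Log2 changes of the 10 genes in the 3 comparisons, ordered by the cordycepin change. Points are limma estimates and bars their SE, filled symbols are called changes, and dotted lines mark the minimum change of 1. Cordycepin plus serum against serum (red triangles) runs from -2.31 for Nuak2 to 0.42 for Pim2, and the 5 filled red triangles are Nuak2, Sgk1, Plk3, Trib1 and Plk2.

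The 5 called genes differed in how they stood to the starved level. Plk3 and Trib1 rose with serum and with cordycepin were near the level without serum, with changes against it of -0.31 and 0.08 that did not pass the test. Sgk1 and Nuak2 were called below it, at -1.20 and -1.44, and Plk2 was below it at -0.80, under the minimum change. These differences between genes were not tested. The shapes of the patterns followed the same lines: Plk3 and Trib1 were each other's nearest member (root mean square difference 0.26 log2 units over 8 arrays, each gene centred on its mean), as were Plk2 and Sgk1 (0.27).

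The arrays lay in 2 rows of the slide, and in each row the cordycepin changes had the sign of the pooled value for all 10 genes. They were -2.20 and -2.67 for Nuak2, -2.38 and -2.08 for Sgk1, -2.06 and -2.01 for Plk3, -1.65 and -2.14 for Trib1, and -1.72 and -1.75 for Plk2. The serum changes varied more between rows, most for Nuak2 (1.26 and 0.54), Pim1 (0.63 and 1.26), Trib2 (0.38 and -0.24) and Plk2 (1.16 and 0.61), none of which was called. Row 1 held no serum replicate 1, serum replicate 1 and cordycepin replicates 1 and 2, and row 2 held the rest. The comparisons with no serum within a row therefore rest on a single array without serum. Likewise, the cordycepin changes rest on a single serum array in row 1 and a single cordycepin array in row 2. The values by row reuse the arrays of the pooled values, and the share of all probes with such signs was not counted. Against no serum, Nuak2 gave -0.94 and -2.13 and Sgk1 -1.20 and -1.21. With the row as a block, the genes called in each comparison were those called without it. Of the genes that passed the adjusted p but not the minimum change, the block ended the pass of Pim1 (0.0615), Trib2 (0.0786) and Pim2 (0.0569) for cordycepin, and of Pim1 (0.0665) and Sgk1 (0.0576) for serum, where the values are limma adjusted p-values.

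Centring the arrays on spike-in probes in place of the 75th percentile kept the 5 cordycepin calls, with adjusted p-values from 0.000131 to 0.0188. It ended the serum calls of Plk3 (1.48, adjusted p 0.492) and Trib1 (1.58, adjusted p 0.338). The SE of both serum changes was 0.571 there, against 0.196 for Plk3 and 0.177 for Trib1 in the main fit. That centring moved the median of all probes to -0.35 for serum, from -0.02.

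Paralogues of these genes were compared next, from a list of 8 tested genes. Sgk2, a close relative of Sgk1, was the 1 called, and it was higher with cordycepin, where 7.63% of probes were called higher. Its signal did not stand well above background on the arrays with serum or without it, and it entered the test through the cordycepin arrays alone, so its p-value is not used here. For a fold, its dim values were raised to the lowest value well above background on their array. On that basis Sgk2 was 2.33-fold brighter with cordycepin than with serum and 2.72-fold brighter than without serum. The detection limit at its own spot may be higher, so these folds are not strict minima. Nuak1 and Sik2 were lower with cordycepin below the minimum change, at -0.93 ± 0.13 (adjusted p 0.00178) and -0.61 ± 0.11 (adjusted p 0.0057). Plk1, Plk4, Sgk3, Sik3 and Trib3 had cordycepin changes between -0.11 and 0.21, and none passed the test. No paralogue was called for serum, by limma, and none reached an unadjusted p of 0.05.

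Kinases around Sik1 and Nuak2 formed a further list, which leaves out these genes and their paralogues Sik2, Sik3 and Nuak1, given above. Of 15 tested genes for LKB1, its partners, AMPK subunits and AMPK-related kinases, limma called 0 with cordycepin, against 2.87% of all probes lower and 7.63% higher, their changes lay between -0.37 and 0.43, and 3 had an unadjusted p under 0.05. Stk11, which encodes LKB1, had a cordycepin change of 0.32 with an adjusted p of 0.0859. Of 23 activators, partners and substrates, 1 was called with cordycepin. This was Cebpb, a target of the Tribbles proteins, at -1.11 ± 0.14 (adjusted p 0.000949). Cebpb had a serum change of 0.09 and was also called lower against no serum, at -1.03.

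Of 95 other protein kinases, 3 were called lower with cordycepin and 1 higher, which is 3.16% and 1.05% beside 2.87% and 7.63% of all probes, and their median change was 0.01. The lower share is near the background and nothing is read from it. The lower ones were Map3k14, the NF-kB inducing kinase, at -2.11 ± 0.17 (adjusted p 9.73e-05), Map3k11 at -1.70 ± 0.15 (adjusted p 0.00013) and Stk40, a Tribbles-related pseudokinase, at -1.57 ± 0.19 (adjusted p 0.000643). All 3 were called lower against no serum as well, and none was called for serum. The checkpoint kinase Chek1 was called higher, at 1.25 ± 0.28, and was above background on 2 of 3 serum arrays. It entered the test through the cordycepin arrays, so its p-value is not used here. Map3k8, which acts upstream of MEK, was the 1 kinase of this list called higher with serum, at 1.63 ± 0.28 (adjusted p 0.0277). Clk1 and Chek1 were the 2 called higher with cordycepin plus serum against no serum, where 6.48% of probes were. The same limit holds for the call of Chek1 there.

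The classical serum response served as a reference. Of 16 immediate early transcription factors, 13 were called higher with serum and 12 lower with cordycepin, with median changes of 2.12 and -1.55. For this list and the phosphatases below, the background is 0.849% of probes called higher with serum and 2.87% lower with cordycepin. Fosl1 changed by -3.07 ± 0.20 with cordycepin (adjusted p 4.13e-05) and, like Sgk1 and Nuak2, was called below the level without serum, at -1.57. Atf3 rose by 4.70 ± 0.27 with serum (adjusted p 0.000173) and with cordycepin, at -1.69 ± 0.24 (adjusted p 0.00163), was still called above the level without serum, at 3.01. Of 10 MAPK phosphatases, 4 were called higher with serum and 7 lower with cordycepin, of which Dusp5 changed most, at 2.94 ± 0.21 and -3.31 ± 0.19 (adjusted p 0.000615 and 2.28e-05). The median serum change of the kinase genes, 0.85, lay below that of the transcription factors, while the cordycepin medians were -1.14 and -1.55. No test of that difference was made.

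**Figure D4:**
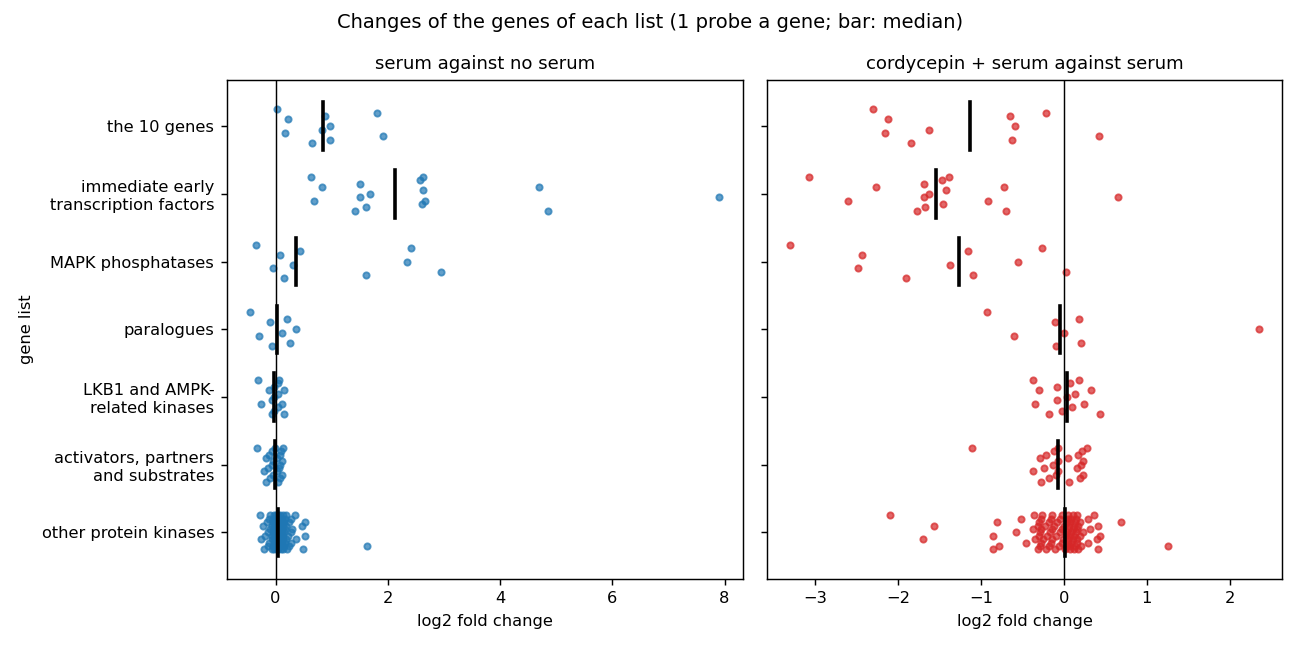
Log2 changes with serum (left) and with cordycepin (right) for the 10 genes and the 6 comparison lists, with 1 probe per gene as a point and the list median as a black bar. The kinase genes have a median of 0.85 with serum and -1.14 with cordycepin, and the paralogues, LKB1 and AMPK-related kinases, partners and other kinases have medians near 0 in both panels.

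Genes with patterns most like those of the 5 called genes were found by the root mean square difference over the 8 arrays, after centring each gene on its mean, among 13411 candidates. Closest to Trib1 were Ifrd1 (0.12 log2 units), a transcriptional coregulator, and Maff (0.19), a small Maf protein. Closest to Plk2 were Tnfrsf12a (0.13), the receptor of TWEAK, and Smad7 (0.16), an inhibitor of TGF-beta signalling. Plk3 was nearest to F3 (0.21), which encodes tissue factor, and to Phlda1 (0.21). Sgk1 was nearest to Myc (0.18) and to the receptor gene Lpar6 (0.19), and Nuak2 to the transcription factor gene Klf10 (0.18) and to the phosphatase gene Dusp4 (0.26). Since all 8 arrays enter this measure, it describes likeness across the 3 groups and is no independent evidence.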

How the data were processed

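The deposited files hold 1 array each, as linear intensity for every spot, extracted by the authors with Feature Extraction 10.7.3.1 per the file headers. That step subtracts local background and marks outliers and spots well above background. Probe coordinates are on mm9. Processed signals were log2 transformed and scaled to each array's 75th percentile over non-control spots, which removes a change shared by most transcripts. Outlier spots were dropped and repeat spots averaged. Testing required a signal well above background throughout at least 1 group, met by 30863 of 55681 probes. Groups were compared with limma 3.58.1 in R 4.3.3 over all 8 arrays, 1 mean per group, with two-sided p-values adjusted by Benjamini-Hochberg over all probes tested. A gene is represented by its probe with the highest mean over all arrays. All 10 genes were named, and from each list up to 6 called genes by size of the cordycepin change. Values of paralogues and of Stk11 are given beyond this rule, chosen after they were seen. Simulated data were used to check the calculation. For Sgk2, the fold takes, for each array of a dim group, its own value or the lowest value well above background, whichever is higher. Members and lists were chosen with earlier results of these data known. Figures were drawn with matplotlib 3.10.9.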

Additional observations from a re-analysis of the deposited data

How the results depend on the processing

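The same 5 genes were called lower with cordycepin under every alternative tried. With no minimum change 8 were called lower and 1 higher. The serum count of 2 went to 0 with spike-in centring and 4 with no minimum change. Against no serum, the count of 2 lower went to 1 with spike-in centring (Nuak2) and with no filter on dim probes (Sgk1), while with no minimum change 3 were lower and 1 higher. Leaving out 1 array at a time gave 1 to 2 lower in that comparison, with 1 left (Sgk1) without cordycepin replicate 3 or no serum replicate 2. Taking the 75th percentile over probes, an alternative chosen after seeing the data, changed no call. Passes on the adjusted p alone were less stable: with spike-in centring it was 0.856 to 1 for Pim1, Pim2, Pim3 and Trib2 with cordycepin and for Pim1 and Sgk1 with serum.

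Changes that turned direction were not called under any setting. With spike-in centring the serum changes were -0.17 for Pim2, -0.11 for Sik1 and -0.31 for Trib2, and those of cordycepin plus serum against none were -0.044 for Pim1, -0.39 for Pim3, -0.37 for Sik1 and -0.32 for Trib1. With normexp they were -0.017 for Trib2 with serum, and -0.023 for Pim3 and -0.007 for Sik1 against no serum. Pim3 was -0.003 with quantile normalisation and -0.005 with the percentile over probes. Leaving out 1 array at a time gave serum changes of -0.166 to 0.222 for Trib2, and changes against no serum of -0.152 to 0.160 for Pim3, -0.100 to 0.155 for Sik1 and -0.065 to 0.205 for Trib1. The cause was not tested.

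Correlations of deviations were -0.17 to 0.23 for arrays with the same replicate number and -0.32 to 0.32 for different numbers. These ranges overlap and rest on few arrays, so they cannot decide whether the numbers pair the arrays. With the number as a replicate block no call at the minimum change was altered. The limma adjusted p rose above 0.05 for Pim1 (0.0696) and Pim2 (0.0605) with cordycepin. It also did for Pim1 (0.115) and Sgk1 (0.122) with serum, and for Plk2 (0.0759) against no serum. Among those that fell were Nuak2 with cordycepin (0.000367) and serum (0.0504), and Trib2 with cordycepin (0.028). The changes against no serum were -0.014 for Pim3 and -0.064 for Sik1.

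Of all probes tested, 2356 were called higher and 886 lower with cordycepin, against 919 and 402 with normexp, 1577 and 428 with spike-in centring and 1949 and 1285 with quantile normalisation. For serum, 262 and 271 became 171 and 59, 54 and 155, and 244 and 191 in the same order, and 133 and 88 without a filter. Against no serum, 1999 and 923 became 1063 and 338, 829 and 611, and 1735 and 1237. Requiring signal on all 8 arrays gave 1117 and 692 with cordycepin, 242 and 142 with serum, and 1022 and 664 against no serum.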
